A study of Mus musculus with 17 samples.

Results

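Glycolysis splits glucose into pyruvate, and lactate dehydrogenase turns pyruvate into lactate. Astrocytes take up glucose, keep the glycogen store of the brain and release lactate, which neurons can take up and burn. Glycogen is built from UDP-glucose by a synthase and a branching enzyme and is broken down by phosphorylases, while monocarboxylate transporters, held at the membrane by the chaperone basigin, carry lactate and pyruvate across it.

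The genes of this machinery were chosen by symbol. The list held 33 of the 26556 genes counted: 16 enzymes of glycolysis and lactate dehydrogenase, 5 regulators at the branch points of glycolysis and pyruvate use, 7 glycogen genes and 5 transport genes. They were counted in 17 RNA-seq libraries of cells sorted by FACS on green fluorescence from Gfap::GFP mice labelled as FVB (FVB/N-Tg in the study's methods) at postnatal day 7. The cells came from the cortex (n = 4) and from 3 primary sensory nuclei of the thalamus, the visual dLG (n = 5), the somatosensory VPM (n = 4) and the auditory MGv (n = 4). All groups shared genotype, strain and age, no animal was treated, and each library pooled 4 brains. The reporter follows the Gfap promoter, so the gate takes whatever cells carry enough GFP, whether astrocytes or others. The questions were how sorted cells of the thalamus differed from those of the cortex, and those of 1 nucleus from those of the other nuclei.

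Libraries held 18213687 to 50366363 counts, with a median of 20657167. All 33 members passed the filter on low counts in both fits. Markers of astrocytes summed to 5734 to 14892 CPM per library (counts scaled by TMM factors and by library size), and no marker of that list was at 0 in any group. Markers of the oligodendrocyte lineage were about as abundant, at 6230 to 11732 CPM, those of neurons reached 675 to 2121 CPM, and those of microglia and endothelium stayed at or under 115 CPM. Library c of the dLG had counts in 17749 genes where the other libraries had them in 21052 to 23365, and library c of the MGv had the highest sum of astrocyte markers. In such bulk samples, fewer cells of a type and less RNA per cell cannot be told apart. Each library was a pool, and whether libraries of different regions shared brains is not given in the sources used here, so p-values measure only the spread between these libraries. A library floor of 3 counts stood at 0.0596 to 0.165 CPM and covers counting error only.

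Per kilobase of exon, Aldoc led the members with a mean of 320.8 CPM over the 17 libraries. Aldoc encodes aldolase C, the brain form of the enzyme that splits fructose 1,6-bisphosphate, and is a long-used astrocyte marker. Basigin (Bsg, 307 CPM per kilobase), Ldhb (237) and Aldoa (167) followed, ahead of Ldha (134), Tpi1 (98.3), Pkm (87.5), Ugp2 (80.6) and Pygb (77.2). At the low end stood Slc16a7 (1.17), the hexokinase Hk2 (0.995) and Slc16a3 (0.391). Hexokinase 1 (Hk1, 14.5) was thus the main measured hexokinase and Slc16a1 (35.7), which encodes MCT1, the main measured lactate transporter. Brain phosphorylase Pygb stood far above the muscle form Pygm (6.07).

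Gapdh, Pgk1 and Pgam1 encode consecutive glycolytic enzymes but had low levels per kilobase, at 1.88, 7.65 and 4.07 CPM. For these genes 25.1%, 53.9% and 36.2% of the 50-base stretches of their transcripts also occur in transcripts of other genes, many of them processed copies. The same held for 26.0% of Eno1, mostly through Eno1b, for 25.8% of Pkm, through the overlapping locus Gm49759, and for 21.0% of Ldhb. It also held for 17.3% of Pfkfb2, 15.8% of Gpi1 and 9.26% of Ldha, with smaller shares for some other members. Reads of these genes could be split or dropped in counting, so their levels, and their places in the order above, are uncertain. The symbol Aldoa had a second row, a 799-base gene model at chr7:126800790-126809108 with 0 to 105 counts per library, which passed no test and was kept apart.

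Between thalamus and cortex, 4 of the 33 members were lower in the sorted thalamic cells and 0 were higher. The test was edgeR's quasi-likelihood test at a Benjamini-Hochberg adjusted p under 0.1. Of all 17856 genes tested, 5.93% were lower and 5.45% higher in the thalamus at the same threshold. DESeq2 called 0 members higher and 4 lower, beside 1704 higher and 1258 lower of 26556 genes. At an unadjusted p under 0.05, 0 members were higher and 6 lower. The share of all genes at that threshold was not counted, so these counts cannot be read as a result about the members. The 4 that edgeR called were Aldoc, the glycogen-targeting subunit gene Ppp1r3g, the UDP-glucose pyrophosphorylase gene Ugp2 and the pyruvate dehydrogenase kinase gene Pdk2. By class, 1 of 16 glycolysis genes, 1 of 5 regulators, 2 of 7 glycogen genes and 0 of 5 transport genes were lower. The median log2 difference of the members was -0.06, beside 0.02 for all genes tested.

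Aldoc (chr11:78322968-78327781, GRCm38) had 1930, 1537, 1879 and 1545 CPM in the 4 cortical libraries. In the 13 thalamic libraries its lowest, median and highest values were 634, 834 and 1150 CPM. Every cortical library lay above every thalamic one, which 3.1% of all genes tested also showed in this direction. The log2 difference, thalamus minus cortex, was -1.04 (SE 0.13), a level 2.05-fold higher in the cortex, with an edgeR adjusted p of 2.0e-05. Its mean level was 798 CPM for the dLG, 920 CPM for VPM and 808 CPM for MGv libraries, and Aldoc differed in none of the tests of 1 nucleus against the other nuclei, where its log2 differences ran from -0.10 to 0.16.

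Ppp1r3g (chr13:35958839-35970388) encodes a subunit that brings protein phosphatase 1 to glycogen and so favours glycogen synthesis. It had 50.5, 53.3, 59.6 and 52.9 CPM in the cortex, and 13.3, 20.8 and 30.8 CPM as lowest, median and highest thalamic values. No thalamic library reached the lowest cortical one. The log2 difference was -1.44 (SE 0.19), a level 2.71-fold higher in the cortex (edgeR, adjusted p = 2.9e-05).

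Ugp2 makes UDP-glucose, the donor for glycogen, and had 346, 318, 309 and 341 CPM in the cortex. Thalamic libraries ran from 120 over a median of 220 to 353 CPM, so that 1 thalamic library, VPM b, exceeded the cortical ones. Its log2 difference was -0.56 (SE 0.18, edgeR adjusted p = 0.0578). Pdk2, whose kinase inhibits the pyruvate dehydrogenase complex and so the making of acetyl-CoA from pyruvate in mitochondria, had 108, 98.3, 109 and 127 CPM in the cortex. Its thalamic values ran from 63.0 over a median of 82.3 to 115 CPM and overlapped with the cortical ones through the VPM. The log2 difference was -0.40 (SE 0.14, edgeR adjusted p = 0.0955). Both calls were lost whichever cortical library was left out, at edgeR adjusted p-values of up to 0.179 for Ugp2 and 0.359 for Pdk2. This left 2 members called, while the genes lower in the thalamus fell from 1059 to between 616 and 826. Pdk2 was called in 6 and Ugp2 in 13 of the 17 fits that left out a library, while Aldoc and Ppp1r3g were called in all 17.

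**Figure D1:**
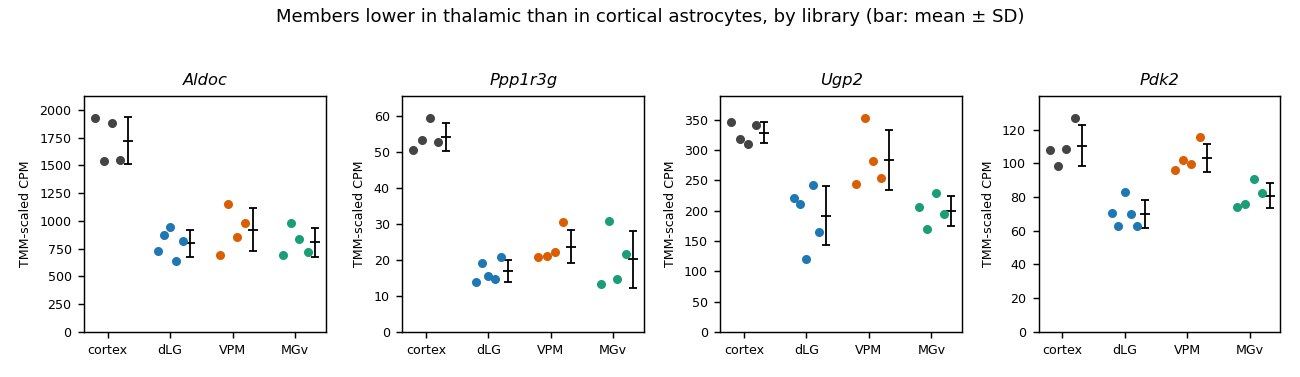
TMM-scaled CPM of Aldoc, Ppp1r3g, Ugp2 and Pdk2 in each of the 17 libraries (points) by region, with the mean and SD of each group as bars. The cortical libraries of Aldoc (1537 to 1930 CPM) and Ppp1r3g (50.5 to 59.6 CPM) lie above all thalamic libraries, whereas 3 VPM libraries of Pdk2 and 1 VPM library of Ugp2 reach the cortical values.

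The other 29 members did not pass, although some differed by as much as the called ones. Slc16a7 gave -0.57 (SE 0.28, edgeR adjusted p = 0.257), Pygm 0.53 (SE 0.26, edgeR adjusted p = 0.255) and Hk1 -0.40 (SE 0.18, edgeR adjusted p = 0.196). The enzyme genes nearest to 0 on the log2 scale included Aldoa at -0.01 (SE 0.13), Pkm at 0.02 (SE 0.14) and Eno1 at 0.01 (SE 0.16). Ldha averaged 515 CPM over cortical and 420 CPM over thalamic libraries (log2 difference -0.30, edgeR adjusted p = 0.263) and passed only where all 4 groups were fitted together (adjusted p = 0.0130). Glucose transporter 1 (Slc2a1), MCT1 (Slc16a1) and Bsg had log2 differences of 0.09, 0.08 and -0.21, with edgeR adjusted p-values of 0.776, 0.925 and 0.288. Among the regulators, all 5 log2 differences were below 0, from -0.42 for Pfkfb3 to -0.14 for Pdk1, and only Pdk2 passed. Pfkfb3 passed where all 4 groups were fitted together (-0.46, edgeR adjusted p = 0.0681).

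Astrocyte markers summed to 11251 to 12529 CPM in the cortex and to 5734 to 8604 CPM in all thalamic libraries but MGv c. Of these 10 markers, 2 were lower and 1 higher in the thalamus (edgeR adjusted p under 0.1). Log2 differences above 0 were seen for 4 of the 10. Slc1a3 had medians of 5404 CPM in the cortex and 1610, 1624 and 1601 CPM in the dLG, VPM and MGv. Aqp4 went the other way, at 1517 CPM against 1957, 1955 and 1737 CPM. Aldoc is a marker of the same cells, and the part of the lower marker sum in the lower Aldoc level was not tested. Library MGv c, with a marker sum of 14892 CPM, had 834 CPM of Aldoc and 14.8 CPM of Ppp1r3g. That is 1 library, and how its marker sum bears on these levels was not tested. Pericyte markers summed to 37.9 to 63.8 CPM in cortical and 2.02 to 35.8 CPM in thalamic libraries. Ependymal markers summed to 3.48 to 94.1 CPM in cortical and 0.284 to 8.50 CPM in thalamic libraries, with both of the 2 tested markers lower in the thalamus. Dissociation stress genes summed to 977 to 4354 CPM (median 1487) in cortical and 819 to 6721 CPM (median 3811) in thalamic libraries, with 1 of 9, Ier2, higher in the thalamus (log2 difference 1.19, edgeR adjusted p = 0.0671). The part of these differences in the values of the members was not tested.

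Several steps of glycolysis can be run by more than 1 isoenzyme, and the mix was set out as a share per kilobase of exon, tested by an exact two-sided permutation of the libraries with Benjamini-Hochberg adjustment over 6 shares. Aldoc made up 75.9% ± 1.04 (SD, n = 4) of aldolase A and C transcripts in the cortex and 60.6% ± 3.35 (SD, n = 13) in the thalamus (exact permutation p = 0.00084, the smallest the design allows, adjusted p = 0.00504). The nuclei had mean shares of 59.1% (dLG), 61.9% (VPM) and 61.1% (MGv), and the ranges of cortex (75.1% to 77.3%) and thalamus (55.7% to 66.8%) did not overlap.

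Ldha, which encodes the subunit of lactate dehydrogenase that prevails in tissues that make lactate, took 40.9% ± 2.85 (SD, n = 4) of Ldha and Ldhb in the cortex and 34.5% ± 3.63 (SD, n = 13) in the thalamus (exact permutation p = 0.00504, adjusted p = 0.0151). The ranges overlapped, at 37.5% to 44.2% and 26.9% to 40.3%. Within the thalamus the mean share was 34.3% for dLG, 37.9% for VPM and 31.2% for MGv libraries. Without cortex b or cortex d the adjusted p rose to 0.0536 and 0.0643. The Ldhb and Ldha levels carry the uncertainty given above, since a stretch of each matches transcripts of other genes.

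The other 4 shares did not pass. Hk2 made up 5.21% of hexokinases in the cortex and 7.62% in the thalamus (adjusted exact permutation p = 0.335), and Pfkp 7.36% and 7.97% of phosphofructokinases (adjusted exact permutation p = 0.520). Pygb made up 94.5% and 91.6% of the phosphorylases (adjusted exact permutation p = 0.254), and Slc16a1 94.3% and 95.6% of the 3 monocarboxylate transporters (adjusted exact permutation p = 0.335).

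**Figure D2:**
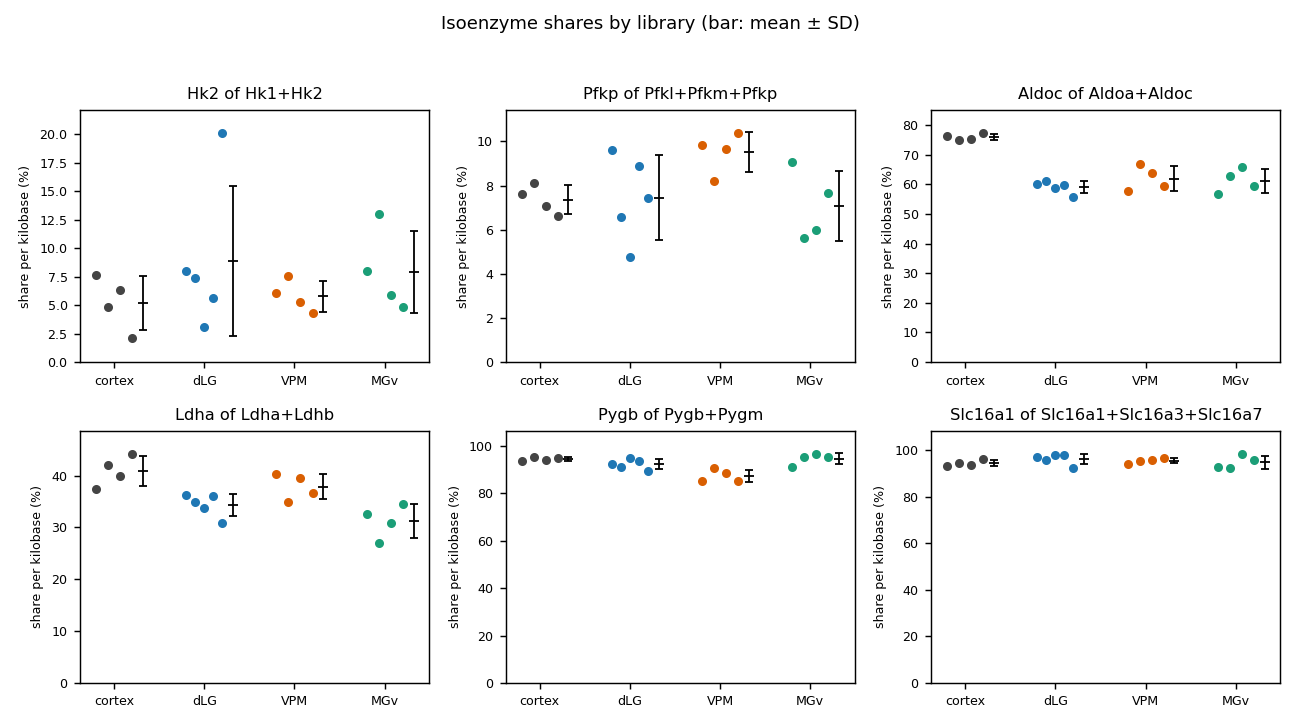
Share of 1 isoenzyme in its family (%, levels per kilobase of exon) in each library (points) by region, with the mean and SD of each group as bars. The Aldoc share of the cortex, 75.1% to 77.3%, lies above all thalamic libraries, the Ldha shares of the regions overlap, and 1 dLG library stands at 20.1% in the Hk2 share.

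Among the nuclei the VPM differed most by count. Against the dLG and MGv together, 9 members were higher and 3 lower in the sorted VPM cells (edgeR, adjusted p under 0.1). Of all 17319 genes tested, 7.07% were higher and 9.78% lower. The higher members were 5 glycolysis genes (Ldha, Pkm, Pfkl, Pfkp, Tpi1), Pdk2, the glycogen genes Ugp2 and Pygm, and Slc2a1. The lower ones were Pcx, Pfkfb3 and Pygb. Of the 16 glycolysis genes, 15 had a log2 difference above 0, Hk2 being the exception, with a median of 0.30 beside -0.02 for all genes.

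Ldha (chr7:46841475-46855627) had 515, 532, 513 and 561 CPM in the VPM. In the dLG it had 422, 415, 420, 381 and 376 CPM, and in the MGv 329, 316, 331 and 343 CPM. The 3 nuclei did not overlap at all, with the VPM on top and the MGv lowest. Every VPM library above every other thalamic library was a pattern held by 4.04% of genes. The log2 difference between the VPM and the other nuclei was 0.51 (SE 0.08, edgeR adjusted p = 0.00362), or 1.42-fold. In single pairs it was 0.65 for VPM minus MGv (edgeR adjusted p = 0.00246) and -0.37 for dLG minus VPM (edgeR adjusted p = 0.0430), and the pair of dLG minus MGv did not pass (0.28, edgeR adjusted p = 0.427). The VPM values fell within the cortical range of 442 to 578 CPM.

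Pkm (chr9:59656368-59679375) encodes the muscle-type pyruvate kinase, which makes pyruvate in the last step of glycolysis. It had 548, 514, 533 and 620 CPM in the VPM. It had 406, 410, 368, 421 and 350 CPM in the dLG and 428, 351, 368 and 389 CPM in the MGv. All VPM libraries stood above the rest of the thalamus and also above the cortical libraries, which reached 488 CPM. The log2 difference was 0.48 (SE 0.09, edgeR adjusted p = 0.00864), with 15.3% of the exonic length shared with Gm49759.

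Phosphofructokinase commits sugar to glycolysis, and its liver and platelet genes were both higher in the VPM. Pfkp had 124, 116, 138 and 172 CPM in the VPM, 54.4 to 110 CPM in the dLG and 56.6 to 109 CPM in the MGv (log2 difference 0.69, SE 0.19, edgeR adjusted p = 0.0366). Pfkl had 185, 198, 196 and 228 CPM in the VPM, 109 to 168 CPM in the dLG and 112 to 159 CPM in the MGv (0.47, SE 0.13, edgeR adjusted p = 0.0358). No library of either gene overlapped between the VPM and the other nuclei, while the muscle gene Pfkm gave 0.17 (edgeR adjusted p = 0.328). Triosephosphate isomerase, Tpi1, had 291, 327, 295 and 385 CPM in the VPM against 195 to 284 CPM in the other nuclei, again with no overlap (0.35, SE 0.12, edgeR adjusted p = 0.0641). Without VPM d, Pfkl, Pfkp and Tpi1 had adjusted p-values of 0.128, 0.139 and 0.218, and Tpi1 was also lost without VPM a or VPM b. Ldha and Pkm passed in all 13 fits that left out a library.

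Pdk2 had 96.2, 102, 99.9 and 115 CPM in the VPM, 63.0 to 83.0 CPM in the dLG and 74.4 to 90.9 CPM in the MGv. The VPM libraries were all higher, and the log2 difference was 0.43 (SE 0.10, edgeR adjusted p = 0.0230), a call kept in each of the 13 fits without 1 library. Pcx encodes pyruvate carboxylase, which in the brain is mainly astrocytic and refills the tricarboxylic acid cycle from pyruvate. It had 107, 143, 146 and 148 CPM in the VPM, 216, 224, 257, 260 and 220 CPM in the dLG, and 150, 215, 405 and 219 CPM in the MGv. All VPM libraries were lower than the others, which 2.62% of genes showed in this direction, although MGv a came within a few CPM. The log2 difference was -0.86 (SE 0.20, edgeR adjusted p = 0.0198), also kept in all 13 fits.

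Pfkfb3 makes the activator of phosphofructokinase, fructose 2,6-bisphosphate. It had 32.6, 41.6, 31.9 and 30.5 CPM in the VPM, 32.4 to 76.1 CPM in the dLG and 44.5 to 62.1 CPM in the MGv (log2 difference -0.62, SE 0.19, edgeR adjusted p = 0.0564). The VPM and dLG overlapped through dLG d, and the call was lost without VPM a, c or d (adjusted p = 0.169 without VPM d).

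The glycogen genes moved in both directions in the VPM. Ugp2 had 244, 353, 281 and 253 CPM there, and 120 to 243 CPM in the other nuclei, a gap of about 1 CPM (log2 difference 0.50, SE 0.16, edgeR adjusted p = 0.0654). Pygm, the muscle phosphorylase, had 26.2, 22.0, 25.2 and 35.6 CPM in the VPM, 17.1 to 27.5 CPM in the dLG and 9.23 to 18.2 CPM in the MGv (0.63, SE 0.19, edgeR adjusted p = 0.0488). Pygb, the brain phosphorylase, had 225, 318, 295 and 307 CPM in the VPM and 281 to 585 CPM in the other nuclei (-0.53, SE 0.19, edgeR adjusted p = 0.0890). Ugp2 was lost whichever VPM library was left out (adjusted p of at most 0.193), Pygm without VPM a, c or d (at most 0.196), and Pygb in 9 of 13 fits, MGv c among the libraries left out (log2 difference -0.38, adjusted p = 0.135). For Gys1 (glycogen synthase) and Ppp1r3g the log2 differences were -0.15 and 0.33, with edgeR adjusted p-values of 0.499 and 0.356.

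Slc2a1, the glucose transporter of astrocytes and of the endothelium of brain vessels, had 144, 149, 198 and 168 CPM in the VPM, 100 to 139 CPM in the dLG and 113 to 146 CPM in the MGv. VPM a lay just under MGv b, so the groups overlapped. The log2 difference was 0.37 (SE 0.12, edgeR adjusted p = 0.0626), lost without VPM a, c or d (adjusted p = 0.218 without VPM c). Endothelial markers summed to only 6.87 to 18.8 CPM in the VPM and 6.41 to 56.4 CPM in all thalamic libraries. Among the lactate transporters, Slc16a1 ranged from 58.1 to 375 CPM across the thalamus, with MGv c on top, and gave 0.09 (SE 0.38). The neuronal form MCT2 (Slc16a7) had 10.4 to 21.7 CPM in the VPM and 4.82 to 16.6 CPM in the other nuclei (0.65, SE 0.26, edgeR adjusted p = 0.120).

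Counts of calls in the VPM rested on its few libraries. The 9 higher members became 5 without VPM a, 6 without VPM c and 4 without VPM d. Calls over all genes fell as well, from 1224 of 17319 higher to 379 of 17870, 468 of 17872 and 593 of 17862. The 3 lower members became 1 without VPM a, c or d, and the 1693 lower genes became 618, 651 and 697. Without dLG c, 9 members were higher and 2 lower, and the same numbers held without MGv c. Over all genes, 1389 were higher and 1926 lower without dLG c, and 1200 and 1555 without MGv c. Against each of the other nuclei separately, 4 members were higher than in both (Ldha, Pkm, Pfkl and Pfkp). Pcx, 1 member, was lower than in both. Of 17319 genes, 346 were higher and 679 lower than in both.

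**Figure D3:**
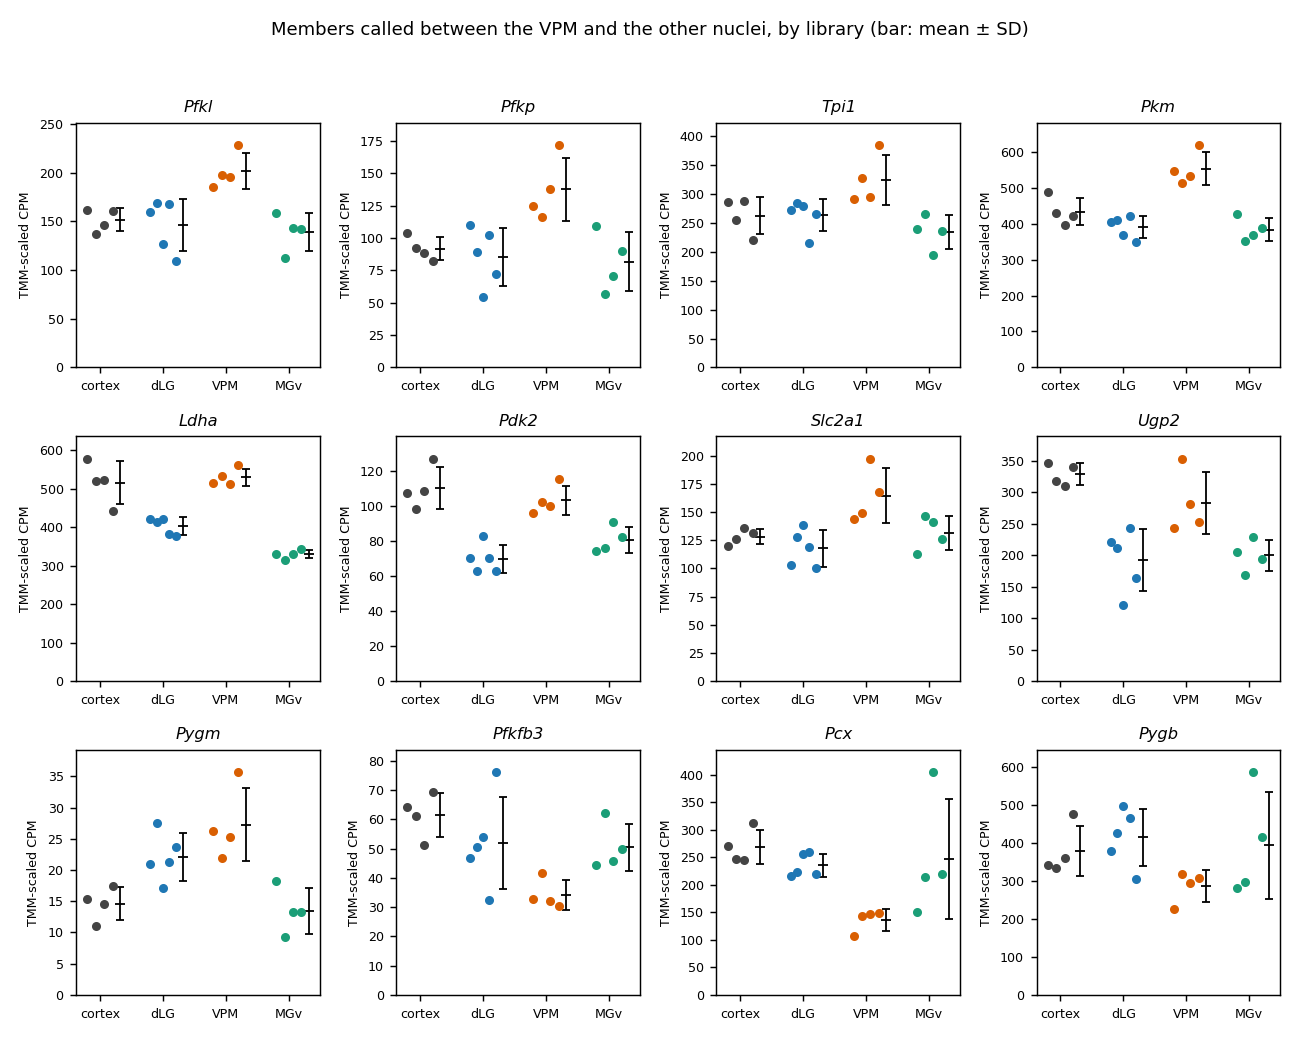
TMM-scaled CPM of the 12 members called between the VPM and the other nuclei, in each library (points) by region, with the mean and SD of each group as bars. Pfkl, Pfkp, Tpi1, Pkm, Ldha, Pdk2 and Ugp2 have all 4 VPM libraries above the dLG and MGv, and Pcx has them all below.

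Other RNA moved with the VPM as well. Of 9 immediate early and heat shock genes, which rise when tissue is dissociated, 6 were lower (Junb, Egr1, Ier2, Fos, Jun and Atf3). The heat shock genes Hspa1a and Hspa1b did not pass. The list summed to 819 to 2986 CPM in the VPM, 3064 to 4030 CPM in the dLG and 4882 to 6721 CPM in the MGv. All 8 microglia markers were lower (7.50 to 13.4 CPM in the VPM, 15.1 to 115 CPM in the other nuclei). Of 10 oligodendrocyte lineage markers 5 were higher and 2 lower, with sums of 7107 to 11732 CPM in the VPM and 6230 to 9235 CPM in the other nuclei. Astrocyte markers overlapped in their sum (6187 to 8590 CPM in the VPM), with 3 of 10 higher and 2 lower. Gfap, whose promoter drives the reporter, had a median of 10.6 CPM in the VPM. Its medians were 219 CPM in the dLG, 947 CPM in the MGv and 495 CPM in the cortex. The part of these differences in the glycolysis values was not tested.

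The promoters of the 2 glycolysis genes with the lowest p-values in the VPM and of the glycogen subunit gene called between the regions are shown for their sequence around the motif ACGTG, the core of hypoxia response elements, read on both strands as ACGTG or CACGT, with an overlapping CACGTG (an E-box) counted once and marked whole. The promoter windows span 250 bases before and 50 bases after the RefSeq start on GRCm38.p6. Printed below are the 250 bases before the start, and capitals mark the motif.
Ldha chr7:46845554-46845803 + strand: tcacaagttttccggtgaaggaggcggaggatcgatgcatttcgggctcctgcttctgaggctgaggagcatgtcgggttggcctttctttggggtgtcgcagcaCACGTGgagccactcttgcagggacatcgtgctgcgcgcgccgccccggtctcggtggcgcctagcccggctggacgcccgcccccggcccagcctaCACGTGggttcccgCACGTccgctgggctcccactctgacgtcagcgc
Pkm chr9:59656977-59657226 + strand: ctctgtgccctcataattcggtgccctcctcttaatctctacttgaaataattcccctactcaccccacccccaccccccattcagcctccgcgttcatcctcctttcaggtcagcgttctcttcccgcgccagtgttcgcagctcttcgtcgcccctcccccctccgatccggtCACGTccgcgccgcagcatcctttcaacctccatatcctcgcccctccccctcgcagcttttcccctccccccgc
Ppp1r3g chr13:35967656-35967905 + strand: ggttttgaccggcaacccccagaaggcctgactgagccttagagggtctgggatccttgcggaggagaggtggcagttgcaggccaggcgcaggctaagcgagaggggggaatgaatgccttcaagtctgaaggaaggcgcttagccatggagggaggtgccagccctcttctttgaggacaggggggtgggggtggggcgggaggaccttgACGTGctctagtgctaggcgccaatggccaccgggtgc
Ldha holds 3 matches, 2 of them E-boxes, and Pkm and Ppp1r3g hold 1 each. A match was found in 23 of 49 windows of the members (46.9%) and in 16.6% of all 32851 windows. The motif was in at least 1 window of 19 of the 31 members with a window, beside 18.5% of all 27025 genes with a window. It was in 7 of 16 glycolysis genes and 5 of 7 glycogen genes, and in none of Aldoc, Pfkl, Pfkp or Tpi1. A match of letters describes the sequence only.

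In the MGv, 1 member was higher and 3 lower than in the dLG and VPM (edgeR, adjusted p under 0.1), beside 1.57% of all genes higher and 0.756% lower. Ldha was lower in all 4 libraries, with the values given above (log2 difference -0.47, SE 0.09, edgeR adjusted p = 0.0116), and this call was kept in all 13 fits without a library. A full separation downwards was seen for 0.404% of genes. The VPM and MGv comparisons share libraries, so they are not independent. Against the dLG alone the lower Ldha level of the MGv did not pass, as given above for that pair.

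Eno1, the enolase of most cells, had 125, 151, 118 and 106 CPM in the MGv, 146 to 207 CPM in the dLG and 162 to 204 CPM in the VPM. Only dLG d reached into the MGv range (log2 difference -0.52, SE 0.13, edgeR adjusted p = 0.0583). Its near copy Eno1b, not a member, gave -0.63 (edgeR adjusted p = 0.0311) in the same comparison, and reads of the shared stretches cannot be told apart. Pygm had 18.2, 9.23, 13.3 and 13.2 CPM in the MGv against 17.1 to 35.6 CPM in the other nuclei (-0.84, SE 0.20, edgeR adjusted p = 0.0535). Eno1 was lost without MGv a, c or d or VPM d, and Pygm without MGv b, c or d or VPM d, at adjusted p-values of up to 0.178 and 0.167.

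Ppp1r3c, which encodes the glycogen-targeting subunit PTG, was the member that was higher. It had 121, 122, 175 and 118 CPM in the MGv, 79.2 to 91.3 CPM in the dLG, and 75.4, 133, 78.1 and 64.7 CPM in the VPM. All MGv libraries were above the rest but for VPM b. The log2 difference of 0.64 (SE 0.17, edgeR adjusted p = 0.0842) passed in only 3 of 13 fits that left out a library, and without MGv c it was 0.47 (adjusted p = 0.333). MGv c was the highest of the MGv libraries for Pcx, Pygb, Slc16a1 and Ppp1r3c and in the sum of astrocyte markers. Without it 0 members were higher and 1, Ldha, was lower, beside 124 higher and 64 lower of 17789 genes. Of the 16 glycolysis genes 14 had log2 differences below 0 in the MGv, with a median of -0.16, and 5 of 9 dissociation genes were higher there.

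In the dLG no member passed in either direction by edgeR, where 0.941% of all genes were higher and 0.214% lower. At an unadjusted p under 0.05, 0 members were higher and 4 lower (Pdk2, Slc16a7, Slc2a1 and Pkm). The share of all genes at that threshold was not counted, so these 4 cannot be read as a result about the members. DESeq2 called 0 members higher and 1 lower, Pdk2 (log2 difference -0.37, adjusted p = 0.0248), beside 436 higher and 156 lower of 26556 genes. Pdk2 had 70.3, 63.2, 83.0, 70.2 and 63.0 CPM in the dLG, below all VPM libraries and overlapping with the MGv. By edgeR its log2 difference was -0.38 (SE 0.10, adjusted p = 0.143), and without dLG c it was -0.44 with an adjusted p of 0.0824. Without MGv c, Pcx passed as higher in the dLG (0.54, edgeR adjusted p = 0.0805). All 5 transport genes had values below 0, from -0.03 for Bsg to -0.71 for Slc16a7, and 11 of the 33 members were above 0.

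**Figure D4:**
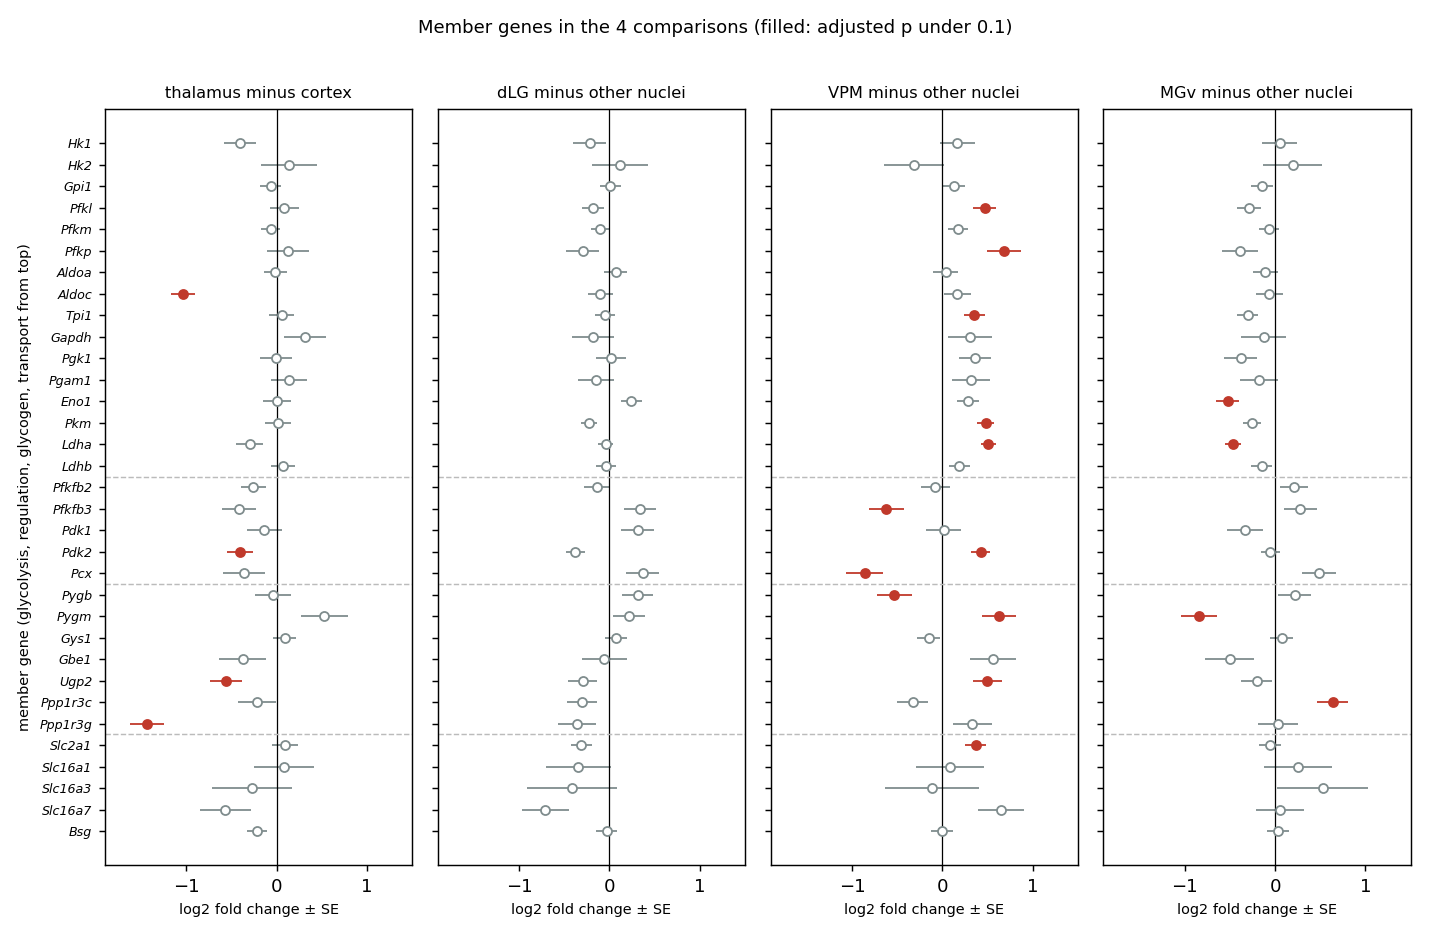
Log2 difference ± SE of the 33 members (rows, by class) for thalamus minus cortex and for each nucleus minus the other nuclei, filled where the edgeR adjusted p is under 0.1. The filled points count 4 between the regions, 0 for the dLG, 12 for the VPM and 4 for the MGv, and 15 of 16 glycolysis genes lie to the right of 0 in the VPM panel.

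Neighbouring pathways, from lists beside the members, showed where the pattern went further. Between the regions, 0 of 13 other glycolysis genes passed. Among 16 other sugar and monocarboxylate transporters 3 were higher in the thalamus and 1, Slc2a6, lower. The 3 were the insulin-responsive glucose transporter Slc2a4 (24.6 ± 6.39 CPM in the thalamus, n = 13, and 12.6 ± 3.42 in the cortex, n = 4, SD, edgeR adjusted p = 0.0120), Slc2a12 (35.2 ± 9.58 and 20.5 ± 3.95, edgeR adjusted p = 0.0203) and Slc16a6 (edgeR adjusted p = 0.0628). Of 21 other glycogen genes 2 were lower, the lysosomal glucosidase gene Gaa (log2 difference -0.41, edgeR adjusted p = 0.0627) and the phosphorylase kinase gene Phkg1 (-0.59, edgeR adjusted p = 0.0902).

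Pdk4, a relative of Pdk2, was also lower in the thalamus, at 27.6 ± 12.6 CPM (SD, n = 13) against 62.9 ± 12.6 CPM (SD, n = 4) in the cortex (log2 difference -1.19, edgeR adjusted p = 0.0171), the 1 call among 12 genes of the pyruvate dehydrogenase complex and pyruvate carrier. Of 8 pentose phosphate genes 1, Tkt, was lower (-0.34, edgeR adjusted p = 0.0854), and none of the 5 gluconeogenesis or 16 tricarboxylic acid cycle genes passed. Of 16 hypoxia-response genes 4 were lower, led by Vegfa (196 ± 45.1 CPM, SD, n = 13, against 426 ± 50.9 CPM, SD, n = 4, -1.12, edgeR adjusted p = 8.6e-05), Mxi1 (-0.83, edgeR adjusted p = 0.00065) and Adm (-2.17, edgeR adjusted p = 0.0204).

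In the VPM, genes of pyruvate use in mitochondria passed in both directions. Of 16 tricarboxylic acid cycle genes 9 were higher and 0 lower, and all 16 had log2 differences above 0 with a median of 0.33. Their summed level was 4574 to 5070 CPM in the VPM, above the 3327 to 3797 CPM of the dLG and the 3259 to 3672 CPM of the MGv. Fumarase (Fh1, 0.60, edgeR adjusted p = 0.00287), the isocitrate dehydrogenase subunit Idh3a (0.79, edgeR adjusted p = 0.00349) and the succinate dehydrogenase subunit Sdhd (0.57, edgeR adjusted p = 0.00471) had the lowest p-values. Of the 12 genes of the pyruvate dehydrogenase complex and carrier 5 were higher, with Pdhb at 167 ± 4.99 CPM in the VPM (SD, n = 4) and 111 ± 12.9 CPM in the other nuclei (SD, n = 9, 0.55, edgeR adjusted p = 0.00860). Among those 5 is Pdk3, a kinase that like Pdk2 inhibits the complex, and Pcx, which also uses pyruvate, was lower as given above. Of 5 gluconeogenesis genes 1 was higher, Fbp1, and 1 lower, Pck2. Of 8 pentose phosphate genes 1 was higher, Rpe. Of the hypoxia-response genes 3 were higher (P4ha1, Vegfa and Hif1a) and 1, Anxa2, was lower. Among other members of the pathways, 1 of 13 glycolysis genes (Eno1b) was higher, 2 of 21 glycogen genes were higher and 2 lower, and 1 of 15 transporters was higher and 2 lower.

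**Figure D5:**
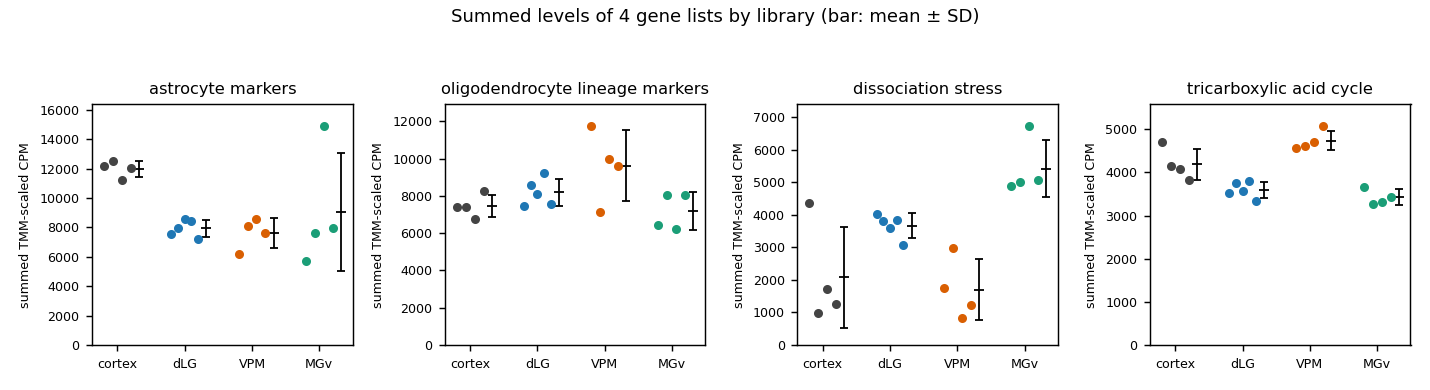
Summed TMM-scaled CPM of astrocyte markers, oligodendrocyte lineage markers, dissociation stress genes and tricarboxylic acid cycle genes in each library (points) by region, with the mean and SD of each group as bars. The cycle genes sum to 4574 to 5070 CPM in the VPM, above the dLG and MGv, and the stress genes sum to 4882 to 6721 CPM in the MGv, above all other libraries.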

How the data were processed

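RNA of FACS-sorted Gfap::GFP cells was made into cDNA libraries and sequenced as single reads of 50 bases. The authors deposited raw counts per Ensembl gene, 1 table per library, that their notes and methods tie to STAR 2.7.0d on mm10 and featureCounts of Subread 1.6.4, with FastQC 0.11.7 and SAMtools 1.9. The strand setting of the counting and the treatment of reads that match several places are not given in the sources used here. The tables were joined on 26556 identifiers, of which 26548 had a symbol in GENCODE M21. No listed gene had fewer than 10 counts summed over libraries.

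Counts were scaled by TMM factors and tested with edgeR 4.0.16 (robust quasi-likelihood, filterByExpr, Benjamini-Hochberg adjustment over all genes tested, threshold 0.1) in R 4.3.3, once for thalamus against cortex over 17 libraries and once among the nuclei over 13, each nucleus against the mean of the other nuclei. Isoenzyme shares used CPM per kilobase of exon and the exact permutation test over 2380 arrangements (scipy 1.17.1), with the smallest possible p at 0.00084. The scripts were tested on simulated data. Alternatives were DESeq2 1.42.0 as test or for size factors, no filter, a threshold of 0.05, a minimum log2 change of 0.322, a block for the replicate letter, the series of library numbers as covariate or within a series, a fit of all 4 groups, each pair of nuclei, and leaving out each library. Libraries take their group from the titles.

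Members called at an adjusted p under 0.1 are given by library, the others by class. Of the other lists, genes are named by lowest p between the regions, and those named for the VPM and MGv were chosen after their values were seen. The members and lists were chosen with earlier results of these data known. Levels per kilobase used the exonic length of GENCODE M21, and shared sequence was the percent of distinct 50-base stretches of a gene's transcripts found in another gene's transcripts. Promoter sequences are from RefSeq (GRCm38.p6).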

Additional observations from a re-analysis of the deposited data

Results flagged for a closer look

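In 10 values 1 library lay far from the others of its group by Dixon's test, which flags about 1 group in 20 by chance, and 156 groups were examined. Tpi1 had 216 CPM in dLG d (266 to 284 CPM in the other dLG libraries), Gapdh 12.2 CPM in dLG c (5.21 to 6.87), and the Hk2 share of hexokinases was 20.1% in dLG e (3.08% to 7.99%). Pdk1 had 20.2 CPM in cortex a (29.2 to 30.4). Pcx had 107 CPM in VPM a (143 to 148) and Ppp1r3g 30.7 CPM in VPM d (20.8 to 22.2). In the MGv, Gys1 had 50.0 CPM in library a (64.9 to 67.8), Slc16a3 0.915 CPM in library a (2.81 to 3.18), Gbe1 18.9 CPM in library b (32.1 to 33.6) and Ppp1r3c 175 CPM in library c (118 to 122).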

How the results depend on the processing

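Directions held under all alternatives for each count and share named here. The 4 members lower in the thalamus became 2 at an adjusted p under 0.05, while lower genes fell from 1059 to 762 of 17856. They became 2 within the library number series that holds all MGv libraries (called the MGv series here), beside 586 of 18666 genes. Within the other series that holds cortex 1 was left, beside 236 of 17269 genes. With all 4 groups fitted together they rose to 6 (Ldha and Pfkfb3 added), beside 1514 of 17856 genes. When each library was left out they were 2 to 4, beside 616 to 1224 of all genes. For the dLG, the 0 lower members became 1 with DESeq2 and 1 with all 4 groups fitted together. Lower genes went from 37 of 17319 to 156 of 26556 and 68 of 17856. Left-out fits gave 0 to 1 members in each direction, beside 90 to 383 higher and 19 to 101 lower genes. For the VPM, the 9 higher members became 3 within the MGv series, 4 against each other nucleus and 4 to 10 in left-out fits. Higher genes went from 1224 of 17319 to 352 of 18168, 346 of 17319 and 379 to 1763. The 3 lower members became 1 at an adjusted p under 0.05, 1 within the MGv series and 1 against each other nucleus (1 to 3). Lower genes went from 1693 of 17319 to 962 of 17319, 835 of 18168 and 679 of 17319 (618 to 2132). For the MGv, the 1 higher member became 0 at an adjusted p under 0.05, 0 with the series as covariate and 0 against each other nucleus (0 to 1), and the 3 lower ones became 1 at 0.05 and 0 against each other nucleus (1 to 3). The cause of these moves was not tested, beyond the fewer libraries within a series and the stricter thresholds. Within the MGv series the Aldoc share differed by -15.1 points (adjusted exact permutation p = 0.133) and the Ldha share by -8.03 points (0.133). Of the cortical libraries this series holds only cortex c and d, which leaves the exact test few arrangements. Its smallest possible p is therefore far higher than over 17 libraries, and these p-values cannot be set beside those of the full design. When libraries were left out in turn, the Aldoc share ranged from -15.8 to -14.9 points and the Ldha share from -7.58 to -5.35 points. The labels do not say whether the replicate letters pair the samples. Residuals of same-lettered libraries correlated at -0.18 to 0.29 (24 pairs, 6 above 0.1). Residuals of libraries of different letters correlated at -0.51 to 0.42 (84 pairs, 21 above 0.1). These values cannot tell whether libraries of 1 letter shared a dissection. With a replicate block the Ldha share differed by -6.14 points (adjusted exact permutation p = 0.0586), 3 members were lower in the thalamus (Ugp2 and Pdk2 lost, Pfkfb3 added at an edgeR adjusted p of 0.0930), and 9 were higher and 3 lower in the VPM (Ugp2 lost, Pgk1 added at 0.0686). The MGv (1 and 3) and dLG (0 and 0) member counts did not move. Over all 17319 genes tested among the nuclei, the block gave 1361 higher and 1581 lower in the VPM. It gave 419 and 253 in the MGv and 97 and 19 in the dLG. Between the regions, 961 of 17856 genes were lower in the thalamus with the block. Aldoc was lost within the other series that holds cortex (adjusted p = 0.139), and Ppp1r3g, and Pkm and Ldha in the VPM, passed under all 10 alternatives. All 4 MGv libraries were in 1 series, so the MGv could be compared within that series only.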
